A study of Mus musculus with 14 samples.

Results

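Epiblast stem cells (EpiSCs) and trophoblast stem cells (TSCs) of the mouse were each given STM2457, an inhibitor of the RNA methyltransferase METTL3, and the response of EpiSCs was set against the response of TSCs. The quantity was a difference of differences for every gene. It is the log2 change with STM2457 over DMSO in EpiSCs minus the log2 change with STM2457 over DMSO in TSCs. A positive value means a higher effect in EpiSCs, and a negative value a lower one. The comparison took 8 of the 14 libraries of the series and all 55416 genes of the count table, of which 16140 had enough reads to be tested. The 4 groups of 2 libraries were EpiSCs with STM2457, EpiSCs with DMSO, TSCs with STM2457 and TSCs with DMSO. STM2457 was given at 50 µM for 12 h to cells plated 1 day earlier, and DMSO was the solvent control. Both lines are labelled as a hybrid of Mus molossinus and Mus musculus. All 4 EpiSC libraries, treated and control, have the genotype XmolXmus-ΔTsix, and all 4 TSC libraries are WT. The EpiSCs grew in knockout DMEM with serum replacement, Fgf2 and Activin A. The TSCs grew in RPMI conditioned by embryonic fibroblasts (MEFs), with serum, Fgf4 and sodium pyruvate. Cell line, genotype and medium therefore cannot be told apart in any difference between EpiSCs and TSCs, and each kind of cell is 1 named line. Total RNA was isolated with TRIzol and made into libraries with a stranded total RNA kit. Whether the replicates came from separate cultures is not labelled. The p-values therefore reflect only how much these particular samples varied, and that variation may be technical.

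METTL3 is the catalytic subunit of a nuclear complex that methylates adenosines in messenger RNA (m6A). Many short-lived messages, among them immediate early and cytokine messages, carry this mark, and reader proteins of the YTH family recruit the decay machinery to marked messages. Cholesterol synthesis is governed by the SREBP transcription factors, which leave the endoplasmic reticulum when sterols are low and raise the genes of the pathway together. NF-kappaB is held in the cytoplasm by its IkappaB inhibitors and, when freed, raises cytokines as well as the inhibitors themselves. EpiSCs represent the epiblast after implantation and depend on Activin and FGF, while TSCs represent the trophectoderm and depend on FGF4 and factors made by fibroblasts.

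The 8 libraries held 17909934 to 21097380 counts each, with 20401 to 21607 genes detected. Levels below are CPM, counts scaled to the library total after TMM adjustment, and n = 2 libraries in each group throughout. Most epiblast and trophoblast markers fitted the labels, while Sox2 and Krt8 went the other way. Pou5f1, the pluripotency factor, averaged 603 CPM in EpiSCs with STM2457 and 794 CPM in EpiSCs with DMSO, and had 0 counts in all 4 TSC libraries. Cdx2 and Elf5, regulators of the trophoblast, averaged 102 and 172 CPM in TSCs with STM2457 and 78.7 and 184 CPM in TSCs with DMSO, and at most 0.0988 CPM in EpiSCs. Sox2, an epiblast marker, averaged 84.0 CPM with STM2457 and 87.5 CPM with DMSO in EpiSCs, and 297 and 303 CPM in TSCs. Krt8, a trophoblast marker, averaged 497 CPM with STM2457 and 451 CPM with DMSO in EpiSCs, and 229 and 268 CPM in TSCs. Dnmt3b was present in both lines. The 8 fibroblast markers summed to 83.5 to 83.9 CPM in EpiSCs with STM2457, 82.9 to 87.4 CPM in EpiSCs with DMSO, 4.49 to 5.93 CPM in TSCs with STM2457 and 3.61 to 3.67 CPM in TSCs with DMSO. The 6 markers of differentiated trophoblast summed to 1410 to 1480 CPM in TSCs with STM2457 and 1360 to 1490 CPM in TSCs with DMSO. In EpiSCs they summed to 1.21 to 1.25 CPM with STM2457 and 1.99 to 2.22 CPM with DMSO. Nearly all of the TSC sum was Hand1, at 1440 CPM with STM2457 and 1430 CPM with DMSO. Gcm1, Synb and Tpbpa had 0 counts in TSCs, and Prl3d1 and Prl2c2 averaged at most 0.297 CPM there. Mettl3 itself, the target of the inhibitor, had 28.7 and 28.4 CPM in EpiSCs with STM2457, 35.1 and 32.8 CPM in EpiSCs with DMSO, 33.8 and 30.6 CPM in TSCs with STM2457 and 33.5 and 37.5 CPM in TSCs with DMSO. Its effect differed between EpiSCs and TSCs by -0.11 ± 0.126 on the log2 scale (edgeR's quasi-likelihood test, Benjamini-Hochberg adjusted p = 0.721). STM2457 blocks the enzyme, so the Mettl3 message does not check the treatment.

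Promoters of 4 genes that the results below turn on are shown first, as examples of a motif in the NF-kappaB, cholesterol and immediate early lists. Each is the stretch from 250 bases before to 50 bases after a RefSeq gene start on GRCm38.p6, 5′ to 3′ on the strand of the gene, with the motif match in capitals.
Csf1, chr3:107760420-107760719, minus strand: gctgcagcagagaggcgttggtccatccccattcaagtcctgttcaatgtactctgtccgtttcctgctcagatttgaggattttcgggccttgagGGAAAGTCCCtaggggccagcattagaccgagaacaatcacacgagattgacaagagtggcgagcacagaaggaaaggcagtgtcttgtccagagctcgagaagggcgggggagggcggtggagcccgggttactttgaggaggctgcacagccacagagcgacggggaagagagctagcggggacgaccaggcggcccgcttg
Nfkbia, chr12:55492598-55492897, minus strand: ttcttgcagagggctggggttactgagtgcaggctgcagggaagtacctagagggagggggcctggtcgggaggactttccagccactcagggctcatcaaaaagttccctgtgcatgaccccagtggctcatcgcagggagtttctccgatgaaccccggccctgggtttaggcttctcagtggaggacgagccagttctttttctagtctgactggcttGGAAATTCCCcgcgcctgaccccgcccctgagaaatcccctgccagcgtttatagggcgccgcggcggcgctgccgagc
Hmgcs1, chr13:119690101-119690400, plus strand: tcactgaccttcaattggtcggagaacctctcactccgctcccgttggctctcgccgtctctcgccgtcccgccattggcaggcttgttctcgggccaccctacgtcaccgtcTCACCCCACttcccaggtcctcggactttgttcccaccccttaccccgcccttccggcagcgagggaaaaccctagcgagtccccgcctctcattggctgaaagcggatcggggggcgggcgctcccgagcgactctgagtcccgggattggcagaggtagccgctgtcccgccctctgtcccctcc
Maff, chr15:79347270-79347569, plus strand: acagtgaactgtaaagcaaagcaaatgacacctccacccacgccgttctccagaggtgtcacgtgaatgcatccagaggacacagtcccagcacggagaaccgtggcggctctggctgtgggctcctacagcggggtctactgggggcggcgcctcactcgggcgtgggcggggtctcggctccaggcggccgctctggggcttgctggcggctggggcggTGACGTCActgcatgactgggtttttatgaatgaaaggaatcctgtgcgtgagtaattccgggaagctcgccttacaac
The capitals in Csf1 and Nfkbia mark an NF-kappaB motif, searched as GGGA, any 2 bases, then TTCC and, for the other strand, GGAA, any 2 bases, then TCCC. This motif lay in 482 of 32851 RefSeq promoters of the same length (1.47%) and in 8 of the 24 NF-kappaB list genes that have a promoter in the table. The capitals in Hmgcs1 mark a sterol regulatory element, searched as TCACNCCAC and GTGGNGTGA, which lay in 408 of all promoters (1.24%) and in 1 of the 18 listed cholesterol genes with a promoter. The capitals in Maff mark a cAMP response element, TGACGTCA, which reads the same on both strands. It lay in 588 of all promoters (1.79%) and in 3 of 20 listed immediate early genes, Btg2, Dusp1 and Maff. Matches of the NF-kappaB motif shared no base with those of the other motifs, and matches of the sterol and cAMP elements overlapped in 3 promoters. The shares over all are of promoters, while the list counts are of genes with a match in any of their promoters, so they are not like for like. These matches describe letters only, and no match elsewhere says nothing of the factors.

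STM2457 had a different effect in EpiSCs and TSCs at 683 of the 16140 tested genes (4.23%, adjusted p under 0.05), with the effect higher in EpiSCs at 336 (2.08%) and lower at 347 (2.15%). Within EpiSCs 4455 genes changed (27.6%), of which 2304 rose and 2151 fell with STM2457. Within TSCs 4036 genes changed (25.0%), of which 2199 rose and 1837 fell. The differences were of moderate size, with a median of 0.528 on the log2 scale in either direction among the 683 genes, and 76 of them reached a 2-fold difference. Of the 683, 292 changed in EpiSCs and were not called in TSCs, 237 changed in TSCs and were not called in EpiSCs, 71 moved the same way in both by unequal amounts, 76 moved in opposite directions, and 7 were called in neither line alone. Of the 683 differences, 670 were at genes present at 1 CPM or more in both lines, as were 12334 of the 16140 tested genes. Over the 12334 such genes the EpiSC effect and the TSC effect had Pearson's r of 0.508 and Spearman's rho of 0.549, a description across genes, which are not independent replicates. Of the 2124 genes called in both lines, 47.7% of the EpiSC calls and 52.6% of the TSC calls, 2047 moved the same way. Each fit with 1 library left out holds only 1 library in a group. Most of these fits called fewer genes, the fewest with a TSC STM2457 library left out. The 683 differences kept their sign in each, which is no separate support because they were called on the same libraries. Why calls were lost was not tested. A fit over all 14 libraries, with XEN cells in the estimate of the spread, called 1 gene, Chst15, and scaling by ribosomal protein genes called 336 (185 higher, 151 lower). That scaling shifted the median gene by 0.144 in EpiSCs and by 0.131 in TSCs on the log2 scale, and by 0.0129 in the difference between them. It raised the share of calls that rose to 86.5% in EpiSCs and 89.9% in TSCs, against 51.7% in EpiSCs and 54.5% in TSCs with TMM.

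**Figure D1:**
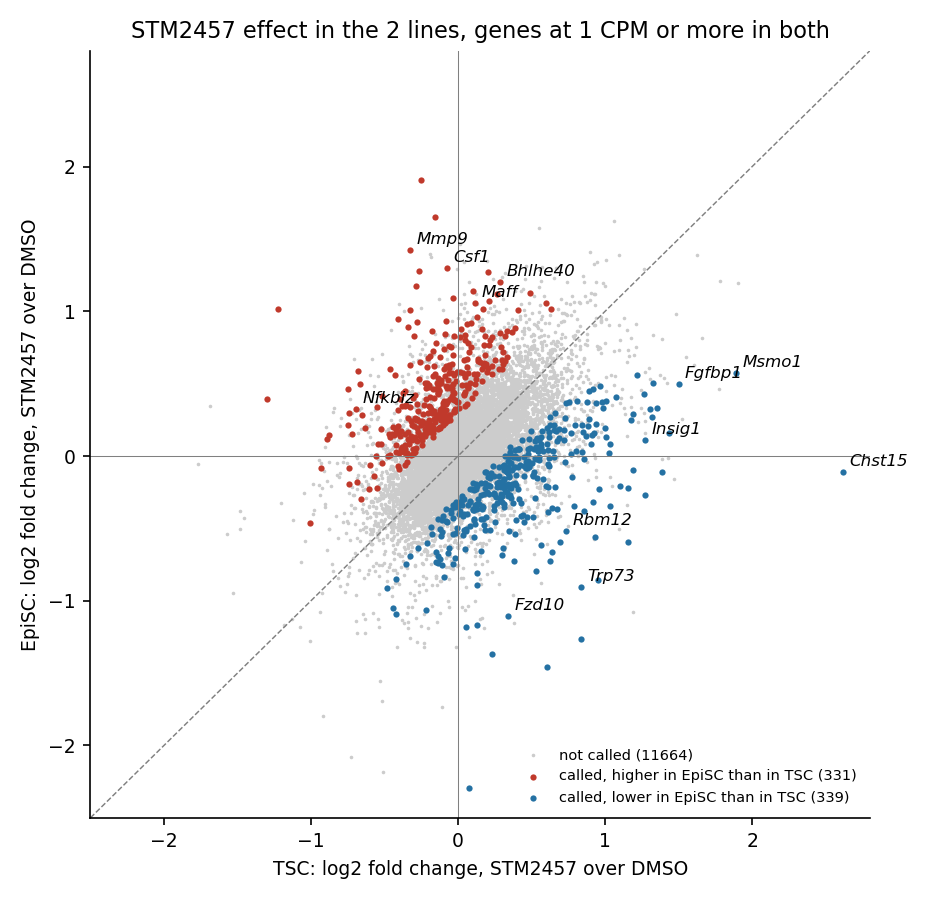
Log2 fold change with STM2457 over DMSO in TSCs (horizontal axis) against that in EpiSCs (vertical axis), 1 point for each of the 12334 tested genes at 1 CPM or more in both lines. The 331 genes with a higher effect in EpiSCs lie above the diagonal of equal effect and the 339 with a lower effect lie below it, among 11664 genes in grey that were not called.

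Before treatment the lines already differed at many of these genes. Of the 347 genes with a lower effect in EpiSCs, 251 (72.3%) had a higher mean level in EpiSCs with DMSO than in TSCs with DMSO. Of the 336 genes with a higher effect in EpiSCs, 96 (28.6%) did. The share over all tested genes was 50.4%. The DMSO libraries enter both the level and the effect, so these shares are a description without a test.

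Cholesterol synthesis separated the lines most among the 43 gene lists, by share of members called. STM2457 raised 22 of 25 tested genes of this list in TSCs (13.6% of all genes rose there) and 13 of 25 in EpiSCs (14.3% of all genes rose there), and it lowered 0 in either line. The effect was lower in EpiSCs than in TSCs at 17 of the 25 genes and higher at 0, against 2.15% and 2.08% of all tested genes. The difference was below 0 for 25 of 25 genes, with a median of -0.608 on the log2 scale, against -0.00656 for all tested genes. The list median was 0.239 for the EpiSC effect and 0.803 for the TSC effect, against 0 for all tested genes in each line. In DMSO the mean level was higher in EpiSCs than in TSCs at 22 of the 25 genes, and at 5 of the 25 the level in TSCs with STM2457 passed that of EpiSCs with DMSO.

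Along the pathway, Hmgcs1, a synthase of the early pathway, had 528 and 541 CPM in EpiSCs with STM2457, 413 and 418 CPM in EpiSCs with DMSO, 240 and 238 CPM in TSCs with STM2457, and 121 and 129 CPM in TSCs with DMSO. Treated and control libraries did not overlap in either line, and Hmgcs1 rose in both, by 0.36 log2 in EpiSCs and 0.94 in TSCs (difference -0.57 ± 0.0851, adjusted p = 8.04e-05). Lss, which closes the first sterol ring, had 151 and 155 CPM in EpiSCs with STM2457, 147 and 154 CPM in EpiSCs with DMSO, 126 and 127 CPM in TSCs with STM2457, and 64 and 60.7 CPM in TSCs with DMSO. Its libraries overlapped between treatments in EpiSCs and stood apart in TSCs, with a difference of -1.0 ± 0.0882 (adjusted p = 1.39e-08).

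Among the later sterol enzymes was Msmo1, with the largest difference of the 25 genes. Msmo1, a C4 demethylase of the pathway, had 233 and 235 CPM in EpiSCs with STM2457 against 145 and 170 CPM with DMSO, and 126 and 126 CPM in TSCs with STM2457 against 33.2 and 35.1 CPM with DMSO. The 2 treated libraries lay above the 2 controls in each line, and the rise was 0.57 log2 in EpiSCs and 1.89 in TSCs (difference -1.32 ± 0.0993, adjusted p = 1.59e-09). Nsdhl, which acts with Msmo1 and is X-linked, had 194 and 206 CPM in EpiSCs with STM2457 against 144 and 138 CPM with DMSO, and 73.9 and 75.8 CPM in TSCs with STM2457 against 29.6 and 30.3 CPM with DMSO. It rose by 0.50 log2 in EpiSCs and by 1.32 in TSCs (difference -0.82 ± 0.0945, adjusted p = 1.71e-06). Dhcr7, which makes cholesterol from its last precursor, rose by 0.32 log2 in EpiSCs and by 1.31 in TSCs (difference -0.98 ± 0.0934, adjusted p = 6.58e-08). Insig1, the sterol-sensing anchor that holds SREBP back and is itself an SREBP target, had 141 and 138 CPM in EpiSCs with STM2457, 130 and 129 CPM in EpiSCs with DMSO, 77.5 and 75.2 CPM in TSCs with STM2457, and 31.1 and 32.2 CPM in TSCs with DMSO. It rose in TSCs by 1.27 log2 and was not called in EpiSCs (0.11, adjusted p = 0.2), a difference of -1.16 ± 0.0937 (adjusted p = 4.24e-09).

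Beside the cholesterol list, 3 genes of fatty acid metabolism also had a lower effect in EpiSCs. No list of such genes was fixed or counted: Slc27a2 is among the largest differences, and Fasn and Scd2 were named after their values were seen. Fasn, the fatty acid synthase, had 870 and 892 CPM in EpiSCs with STM2457, 801 and 738 CPM in EpiSCs with DMSO, 441 and 422 CPM in TSCs with STM2457, and 224 and 207 CPM in TSCs with DMSO (difference -0.81 ± 0.0906, adjusted p = 1.32e-06). It rose in both lines, by 0.20 log2 in EpiSCs and 1.0 in TSCs. Scd2, a fatty acid desaturase, rose by 0.85 log2 in TSCs and was not called in EpiSCs (-0.02), a difference of -0.88 ± 0.0951 (adjusted p = 8.82e-07). Slc27a2, a fatty acid transporter and acyl-CoA synthetase, had 13.2 and 14.8 CPM in EpiSCs with STM2457 against 16.4 and 17.3 CPM with DMSO, and 6.93 and 6.35 CPM in TSCs with STM2457 against 3.02 and 2.47 CPM with DMSO. It rose in TSCs by 1.27 log2 and differed by -1.54 ± 0.224 (adjusted p = 6.32e-05), its EpiSC value of -0.27 not being called. Among the SREBP regulators, Srebf2 rose in TSCs by 0.35 log2 and differed by -0.49, while the differences of Srebf1 (-0.09) and Scap (-0.21) did not pass the test. The count of 17 cholesterol genes was 14 to 17 with any 1 library left out, 16 by DESeq2, 17 with ribosomal scaling, and 6 when a fold of 1.5 had to be exceeded.

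**Figure D2:**
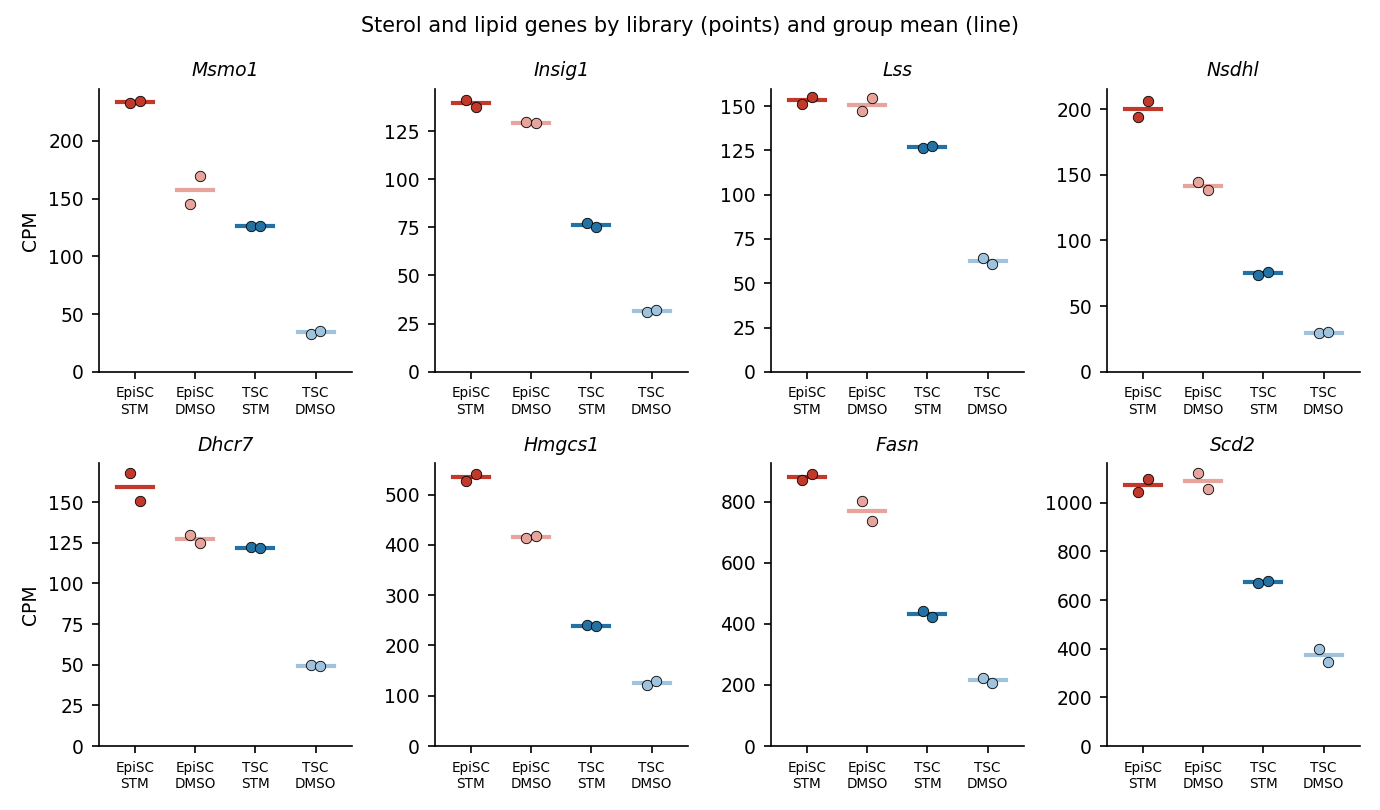
CPM in each of the 8 libraries for 8 genes of sterol and fatty acid synthesis, with EpiSC libraries left of TSC libraries and STM2457 left of DMSO. The TSC libraries with STM2457 stand well above those with DMSO in each panel, as for Msmo1 at 126 and 126 CPM over 33.2 and 35.1 CPM, while the EpiSC libraries differ less.

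Immediate early genes, which respond to signals without new protein synthesis, had the opposite order. In EpiSCs 16 of the 26 tested members rose with STM2457 and 0 fell (14.3% and 13.3% of all tested genes). In TSCs 3 rose and 4 fell (13.6% and 11.4% of all), or 8 rose and 1 fell with ribosomal scaling. The effect was higher in EpiSCs at 8 members (2.08% of all tested genes) and lower at 0, with a list median of 0.299 on the log2 scale. Over the 22 members at 1 CPM or more in both lines the median was 0.341, with the same 8 called. The median effect was 0.443 in EpiSCs and 0.1 in TSCs.

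Maff, a small partner of basic leucine zipper factors, had 45.3 and 46.2 CPM in EpiSCs with STM2457, 21.7 and 22.2 CPM in EpiSCs with DMSO, 91.8 and 88.1 CPM in TSCs with STM2457, and 86.4 and 79.6 CPM in TSCs with DMSO. Both EpiSC libraries with STM2457 stood far above the controls, and Maff rose there by 1.06 log2. The TSC value of 0.11 was not called (adjusted p = 0.239), and the difference was 0.94 ± 0.106 (adjusted p = 1.32e-06). Junb, a subunit of the AP-1 factor, had 118 and 128 CPM in EpiSCs with STM2457 against 62.4 and 67.9 CPM with DMSO, and 109 and 108 CPM in TSCs with STM2457 against 108 and 95.6 CPM with DMSO. Its groups stood apart in EpiSCs, where it rose by 0.92 log2, and the difference was 0.83 ± 0.0996 (adjusted p = 3.32e-06). Ier3, an early response gene linked to survival signalling, had 75.6 and 62.7 CPM in EpiSCs with STM2457, 38.3 and 38.6 CPM in EpiSCs with DMSO, 63.8 and 67.8 CPM in TSCs with STM2457, and 75.3 and 64.7 CPM in TSCs with DMSO. In EpiSCs Ier3 rose by 0.84 log2, and its libraries overlapped between treatments in TSCs (difference 0.93 ± 0.12, adjusted p = 1.1e-05). Zfp36, which binds AU-rich elements and promotes decay of cytokine messages, had 57.5 and 56.6 CPM in EpiSCs with STM2457, 36.7 and 32.8 CPM in EpiSCs with DMSO, 126 and 127 CPM in TSCs with STM2457, and 121 and 118 CPM in TSCs with DMSO. Zfp36 rose in EpiSCs by 0.72 log2, with a difference of 0.64 ± 0.0981 (adjusted p = 0.000131).

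Members of the list did not all behave alike. Jun and Ier2 rose in EpiSCs, by 0.32 and 0.17 log2, and fell in TSCs, by 0.41 and 0.39. Their differences were 0.73 ± 0.126 for Jun (adjusted p = 0.00061) and 0.56 ± 0.0981 for Ier2 (adjusted p = 0.000729). Egr1, a zinc finger factor induced by ERK, had 104 and 130 CPM in EpiSCs with STM2457 against 63.4 and 78.1 CPM with DMSO, and 124 and 129 CPM in TSCs with STM2457 against 87.7 and 72.6 CPM with DMSO. It rose in both lines by similar amounts, 0.73 log2 in EpiSCs and 0.66 in TSCs, and its difference of 0.07 ± 0.188 did not pass the test (adjusted p = 0.918). Ccn1, a target of serum response factor and YAP, also rose in both, by 0.59 log2 in EpiSCs and 0.77 in TSCs. Jund rose in both, by 0.58 log2 in EpiSCs and 0.20 in TSCs. Its difference of 0.38 was lost without EpiSC STM2457 replicate 1 (adjusted p = 0.0551) and without TSC STM2457 replicate 1 (adjusted p = 0.114), and 52.6% of its exon bases overlap an antisense transcript whose reads cannot be told apart without the strand setting. The list count was 6 to 10 with any 1 library left out.

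Genes regulated by NF-kappaB, cytokines included, also had higher effects in EpiSCs. Of the 25 tested members, 20 rose in EpiSCs and 0 fell (14.3% of all tested genes rose there), and 6 rose and 2 fell in TSCs (13.6% and 11.4% of all). The difference was called as higher in EpiSCs at 6 members (2.08% of all tested genes) and as lower at 0, with a median of 0.528 on the log2 scale, against 0.508 for the EpiSC effect and 0 for the TSC effect. Many cytokine genes had few or no reads in TSCs, so the 17 members at 1 CPM or more in both lines are the clearer comparison. Among these, 15 rose in EpiSCs, 6 rose and 2 fell in TSCs, and the median difference was 0.384. Of the fibroblast markers summed above, Col1a1 averaged 19.9 CPM in EpiSCs with STM2457 and 29.6 CPM with DMSO, and Twist1 averaged 38.7 CPM with STM2457 and 30.0 CPM with DMSO. Their part in the NF-kappaB values was not tested.

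Csf1, the growth factor of macrophages, had 147 and 158 CPM in EpiSCs with STM2457, 61.8 and 62.5 CPM in EpiSCs with DMSO, 3.08 and 2.83 CPM in TSCs with STM2457, and 3.34 and 2.85 CPM in TSCs with DMSO. The EpiSC groups stood far apart and the TSC libraries overlapped. Csf1 rose in EpiSCs by 1.30 log2, the TSC value was -0.07 (adjusted p = 0.838), and the difference was 1.37 ± 0.199 (adjusted p = 6.32e-05). Tnfaip2, a gene induced by TNF, had 16.2 and 16.5 CPM in EpiSCs with STM2457 against 8.36 and 8.62 CPM with DMSO, and 16.8 and 16.3 CPM in TSCs with STM2457 against 20.1 and 23.7 CPM with DMSO. It rose in EpiSCs by 0.95 log2 and fell in TSCs by 0.41, a difference of 1.35 ± 0.17 (adjusted p = 7.28e-06). Nfkbiz, a nuclear IkappaB protein that alters NF-kappaB target choice, had 16.8 and 16.1 CPM in EpiSCs with STM2457, 14.1 and 12.2 CPM in EpiSCs with DMSO, 34.5 and 37 CPM in TSCs with STM2457, and 62.1 and 53.7 CPM in TSCs with DMSO. It too moved in opposite directions: it rose by 0.32 log2 in EpiSCs while it fell by 0.70 in TSCs (difference 1.02 ± 0.142, adjusted p = 3.58e-05).

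The cytoplasmic inhibitor Nfkbia, whose promoter is shown above, had 41.8 and 36.8 CPM in EpiSCs with STM2457, 30.8 and 28.9 CPM in EpiSCs with DMSO, 15.9 and 17.2 CPM in TSCs with STM2457, and 19.9 and 18.8 CPM in TSCs with DMSO. Its rise in EpiSCs was 0.39 log2, the TSC value was -0.22 (adjusted p = 0.134), and the difference was 0.61 ± 0.139 (adjusted p = 0.00939). Without EpiSC STM2457 replicate 1 the adjusted p of Nfkbia was 0.0702, and without TSC STM2457 replicate 1 it was 0.0681. Nfkbie differed by 1.01 (adjusted p = 0.0208) and Nfkb2 by 0.35 (adjusted p = 0.0407), and each lost its call when 1 of several libraries was left out. Without TSC STM2457 replicate 1 the list count was 3 in place of 6. The subunit genes Rela, Nfkb1, Relb and Rel rose in both lines, and their differences of -0.17 to 0.20 did not pass the test.

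Cytokine genes with few TSC reads rose in EpiSCs without a testable counterpart. Cxcl10, a chemokine, had 28.1 and 28 CPM in EpiSCs with STM2457 against 9.54 and 9.8 CPM with DMSO, and 0 counts in all 4 TSC libraries. Its rise in EpiSCs was 1.54 log2 (adjusted p = 1.29e-09), and no difference can be stated against a line at 0. Ltb, a lymphotoxin subunit, had 48.2 and 44.4 CPM in EpiSCs with STM2457 against 12.5 and 12.5 CPM with DMSO, and at most 0.195 CPM in any TSC library. Ltb rose in EpiSCs by 1.89 log2, and its difference from TSCs did not pass the test (adjusted p = 0.23). Both genes were named after their values were seen. Of the interferon response genes, 8 of 24 rose and 2 fell in EpiSCs (14.3% and 13.3% of all tested genes), or 4 rose and 0 fell by DESeq2. Only Stat2, a transducer of interferon signals, differed between the lines (-0.48 ± 0.132, edgeR adjusted p = 0.0324). DESeq2, ribosomal scaling and 6 of the 8 left-out libraries removed that call.

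**Figure D3:**
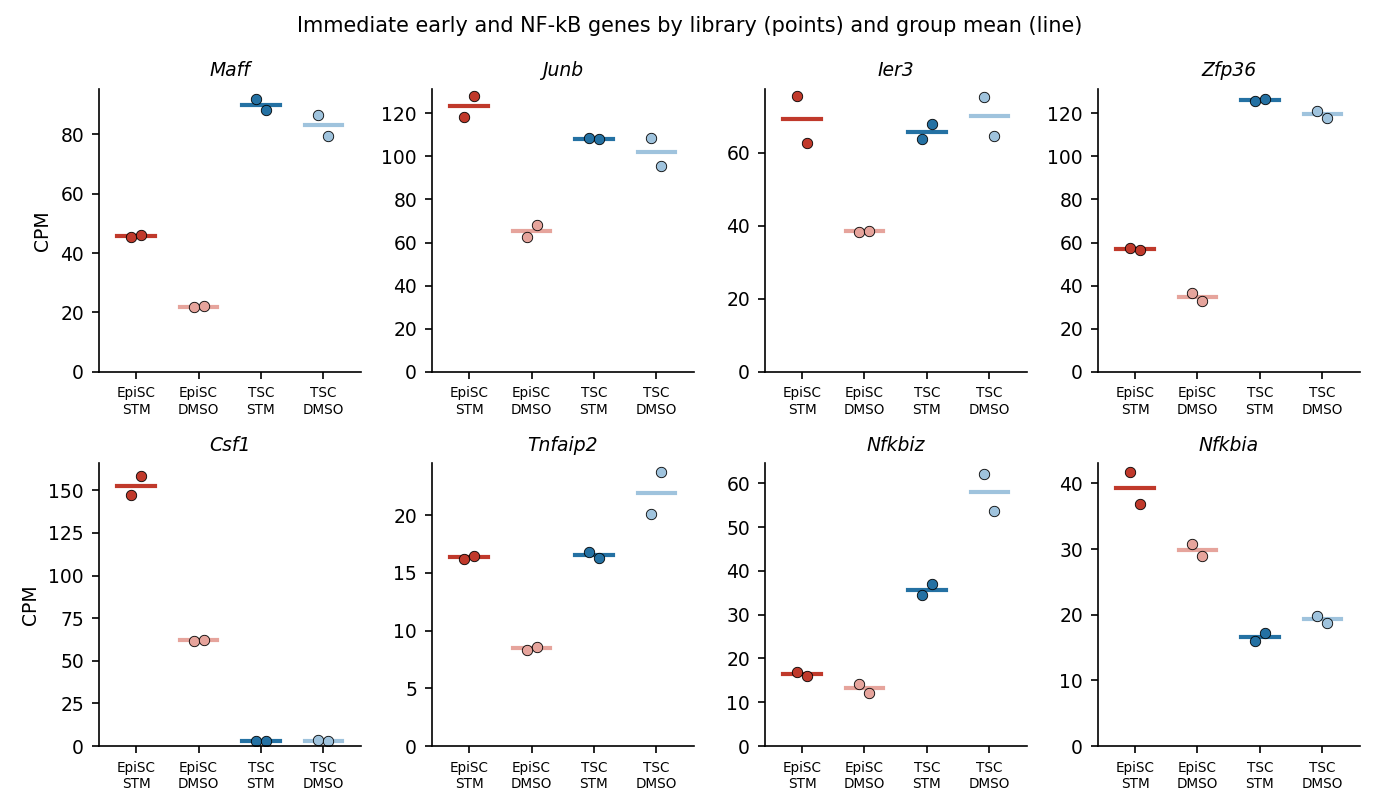
CPM in each of the 8 libraries for 4 immediate early genes (Maff, Junb, Ier3, Zfp36) and 4 genes of the NF-kappaB list (Csf1, Tnfaip2, Nfkbiz, Nfkbia), with EpiSC libraries left of TSC libraries and STM2457 left of DMSO. The EpiSC libraries with STM2457 stand above those with DMSO in each panel, as for Csf1 at 147 and 158 CPM over 61.8 and 62.5 CPM, and in TSCs Nfkbiz and Tnfaip2 stand lower with STM2457.

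Glycolysis and hypoxia genes also had a higher effect in EpiSCs at 7 of 28 members and a lower one at 0, against 2.08% and 2.15% of all tested genes. In EpiSCs 11 members rose and 2 fell (14.3% and 13.3% of all), and in TSCs 4 rose and 9 fell (13.6% and 11.4% of all). With ribosomal scaling 2 fell in TSCs and the difference was called at 5. The median difference was 0.211 on the log2 scale. The median TSC effect was -0.119 with TMM and 0.0117 with ribosomal scaling, so its sign depends on the scaling. Slc2a1, the main glucose transporter of growing cells, had 946 and 795 CPM in EpiSCs with STM2457, 605 and 580 CPM in EpiSCs with DMSO, 1044 and 1071 CPM in TSCs with STM2457, and 1209 and 1175 CPM in TSCs with DMSO. Slc2a1 rose in EpiSCs by 0.55 log2, while the TSC value of -0.17 was not called (adjusted p = 0.0689), and the difference was 0.73 ± 0.0988 (adjusted p = 2.4e-05). Slc2a3, a second glucose transporter, rose by 0.24 log2 in EpiSCs and fell by 0.20 in TSCs (difference 0.43 ± 0.0882, adjusted p = 0.00363). Vegfa, an angiogenic factor raised by hypoxia, had 54.9 and 52.2 CPM in EpiSCs with STM2457 against 38.2 and 39 CPM with DMSO, and 72.2 and 76.2 CPM in TSCs with STM2457 against 80.2 and 72.7 CPM with DMSO. The TSC libraries overlapped, and the difference was 0.51 ± 0.104 (adjusted p = 0.00367). The glycolytic enzyme genes Pfkp and Aldoa each differed by 0.35 log2, and both calls were lost when certain single libraries were left out. The list count of 7 was 3 without EpiSC STM2457 replicate 1, without TSC STM2457 replicate 1 or without TSC STM2457 replicate 2.

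Genes of the oxidative stress response differed at 3 of 19 members, each with a higher effect in EpiSCs (2.08% of all tested genes). Hmox1, the heme oxygenase, had 202 and 206 CPM in EpiSCs with STM2457 against 130 and 122 CPM with DMSO, and 130 and 127 CPM in TSCs with STM2457 against 139 and 124 CPM with DMSO. Only the EpiSC groups stood apart, and the difference was 0.73 ± 0.0901 (adjusted p = 5.64e-06). Srxn1, which repairs oxidised peroxiredoxins, rose in EpiSCs by 0.58 log2 and had a TSC value of 0.02 (difference 0.56 ± 0.103, adjusted p = 0.00123). Nfe2l2, the factor that governs both in the textbook pathway, rose in both lines, by 0.69 log2 in EpiSCs and 0.34 in TSCs. Its difference of 0.35 (adjusted p = 0.0194) was lost with ribosomal scaling (adjusted p = 0.0855) and, without TSC STM2457 replicate 2, had an adjusted p of 0.136.

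By size, the largest differences among genes expressed in both lines included several at which 1 line held the gene at a low level. Chst15, a chondroitin sulfotransferase, had 41.4 and 42.6 CPM in EpiSCs with STM2457, 45.7 and 44.9 CPM in EpiSCs with DMSO, 1.45 and 1.27 CPM in TSCs with STM2457, and 0.159 and 0.274 CPM in TSCs with DMSO. It rose in TSCs by 2.62 log2 where its control level was near 0, was not called in EpiSCs (-0.11, adjusted p = 0.388), and differed by -2.73 ± 0.428 (adjusted p = 0.000178). Chst15 lies inside another gene on the same strand and shares 0 exon bases with it, so its low TSC counts are uncertain. Fzd10, a WNT receptor, had 17.9 and 22.8 CPM in EpiSCs with STM2457, 44.8 and 43 CPM in EpiSCs with DMSO, 5.54 and 6.89 CPM in TSCs with STM2457, and 4.93 and 4.93 CPM in TSCs with DMSO. It fell in EpiSCs by 1.10 log2, and the TSC value of 0.34 was not called (difference -1.44 ± 0.203, adjusted p = 4.02e-05). Utp14b, a ribosome assembly factor gene, had 36.2 and 35.6 CPM in EpiSCs with STM2457, 41.1 and 35.9 CPM in EpiSCs with DMSO, 35.8 and 31.7 CPM in TSCs with STM2457, and 15.3 and 14.3 CPM in TSCs with DMSO. Its difference was -1.29 ± 0.135 (adjusted p = 5.38e-07), but it lies inside Acsl3 on the same strand and shares 244 exon bases with it, so its counts are uncertain.

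With the effect higher in EpiSCs, Phlda1, an early response gene of FGF and ERK signalling, had 86.4 and 83.4 CPM in EpiSCs with STM2457, 43.9 and 47.6 CPM in EpiSCs with DMSO, 9.79 and 11.8 CPM in TSCs with STM2457, and 13.8 and 13.6 CPM in TSCs with DMSO. It rose in EpiSCs by 0.89 log2 and fell in TSCs by 0.34 (difference 1.23 ± 0.138, adjusted p = 1.32e-06), and 33.0% of its exon bases overlap a non-coding RNA on the other strand. Mmp9, a secreted gelatinase, had 3.46 and 3.9 CPM in EpiSCs with STM2457 against 1.89 and 0.877 CPM with DMSO, and 10.7 and 9.09 CPM in TSCs with STM2457 against 13.1 and 11.6 CPM with DMSO. Its rise of 1.42 log2 in EpiSCs gave a difference of 1.75 ± 0.313 (adjusted p = 0.00095). Bhlhe40, a repressor induced by hypoxia and the clock, had 208 and 209 CPM in EpiSCs with STM2457, 88.6 and 92.8 CPM in EpiSCs with DMSO, 192 and 189 CPM in TSCs with STM2457, and 172 and 140 CPM in TSCs with DMSO. It rose in both lines, by 1.20 log2 in EpiSCs and 0.29 in TSCs (difference 0.91 ± 0.102, adjusted p = 1.32e-06). Spp1, the secreted phosphoprotein osteopontin, rose in EpiSCs by 0.83 log2 (difference 1.13 ± 0.182, adjusted p = 0.000243). Krt19, a keratin of simple epithelia, rose by 0.34 log2 in EpiSCs and fell by 0.55 in TSCs (difference 0.89 ± 0.0953, adjusted p = 6.99e-07). Nos3 and Ccdc184 also had higher effects in EpiSCs, by 1.54 and 1.47 log2. Without EpiSC STM2457 replicate 1 the adjusted p was 0.101 for Nos3 and 0.0793 for Ccdc184.

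Genes at 1 CPM or more in a single line gave 6 calls of 1380 in EpiSCs alone and 4 of 1115 in TSCs alone, against 4.23% of all tested genes. Few reads in the other line leave a difference with a wide error, as for Ltb (2.237 ± 1.015 log2). The low counts therefore do not say how many responses were particular to 1 line. Etv1, an ETS factor downstream of FGF signalling, had 56.2 and 54 CPM in EpiSCs with STM2457 against 71.3 and 70.2 CPM with DMSO. In TSCs it had 11 counts over the STM2457 libraries and 0 over the DMSO libraries. The level with STM2457 was 3.55-fold a floor of 3 counts over the DMSO group (0.0809 CPM). Clec2g, a C-type lectin gene, had 14.2 and 16.4 CPM in EpiSCs with STM2457 against 22.5 and 20.1 CPM with DMSO. In TSCs Clec2g had 9 counts over the STM2457 libraries against 0 with DMSO, 2.9-fold the same floor. The floor covers only the counting error of the 0 counts, not that of the 11 or 9 counts, so these folds are no firm lower bounds. Dglucy, a glutamate cyclase gene, had 0.105 and 0.0464 CPM in EpiSCs with STM2457, 0.647 and 0.567 CPM in EpiSCs with DMSO, 10.3 and 8.89 CPM in TSCs with STM2457, and 7.85 and 6.8 CPM in TSCs with DMSO. It fell in EpiSCs, and the call on the difference was lost without EpiSC STM2457 replicate 2 (adjusted p = 0.0569). Without TSC STM2457 replicate 2 the adjusted p of Etv1 was 0.0698, and without TSC STM2457 replicate 1 that of Clec2g was 0.175.

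Opposite responses were found at 76 of the 683 genes, of which 37 rose in EpiSCs and fell in TSCs and 39 fell in EpiSCs and rose in TSCs. Among them were 5 genes of the second kind, chosen for the size of the smaller of their 2 effects. Trp73, a relative of p53, had 6.5 and 7.56 CPM in EpiSCs with STM2457 against 13.1 and 13.4 CPM with DMSO, and 2.52 and 1.86 CPM in TSCs with STM2457 against 1.06 and 1.37 CPM with DMSO. It fell by 0.91 log2 in EpiSCs and rose by 0.83 in TSCs (difference -1.74 ± 0.322, adjusted p = 0.00128). Rbm12, an RNA-binding protein gene, had 24.4 and 27.2 CPM in EpiSCs with STM2457 against 32.2 and 42 CPM with DMSO, and 35.1 and 34.4 CPM in TSCs with STM2457 against 19 and 22.8 CPM with DMSO. It fell by 0.52 log2 in EpiSCs and rose by 0.73 in TSCs (difference -1.26 ± 0.155, adjusted p = 8.71e-06).

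Map2k6, a kinase upstream of p38, fell by 0.59 log2 in EpiSCs and rose by 0.69 in TSCs (difference -1.29 ± 0.26, adjusted p = 0.00331). Acer2, a ceramidase, fell by 0.62 log2 in EpiSCs and rose by 0.56 in TSCs (difference -1.18 ± 0.231, adjusted p = 0.00248). Bahcc1, a chromatin reader gene, had 35.1 and 38.8 CPM in EpiSCs with STM2457 against 57.1 and 54.7 CPM with DMSO, and 1.17 and 1.12 CPM in TSCs with STM2457 against 0.637 and 0.384 CPM with DMSO. Its difference was -1.75 ± 0.375 (adjusted p = 0.00549), and the call was lost without TSC DMSO replicate 2 (adjusted p = 0.0585). The count of opposite genes was 45 without EpiSC STM2457 replicate 1, 34 without TSC STM2457 replicate 1, 27 without TSC STM2457 replicate 2, and 28 with ribosomal scaling.

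**Figure D4:**
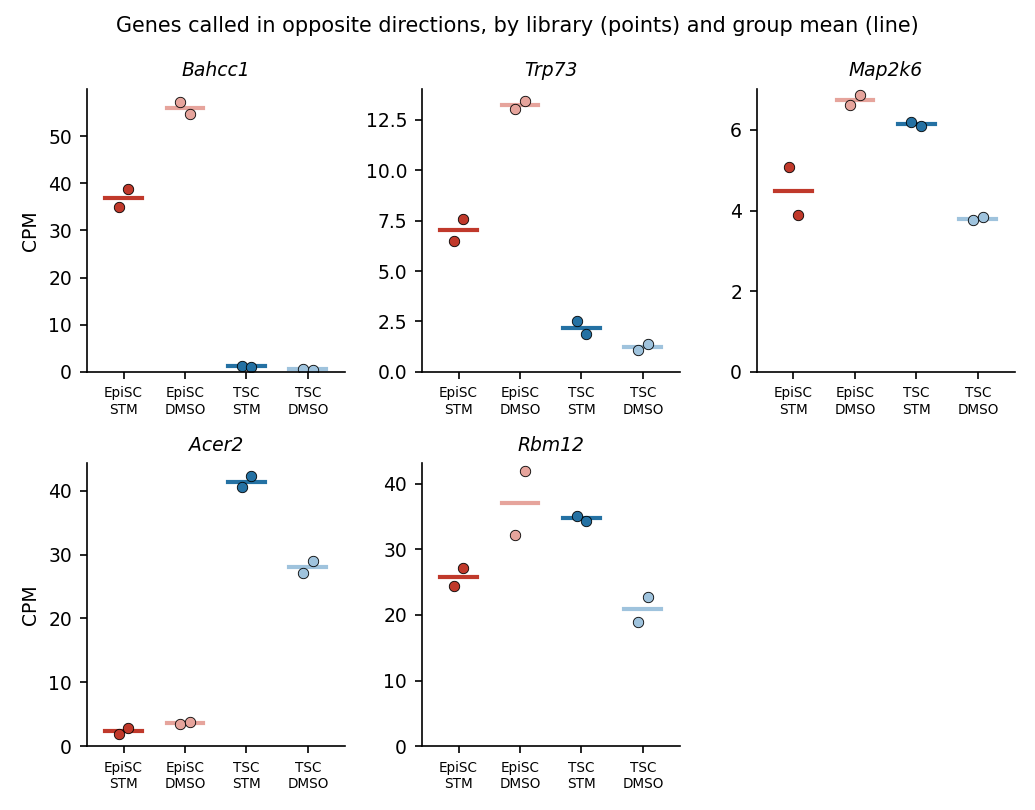
CPM in each of the 8 libraries for 5 genes that fell in EpiSCs and rose in TSCs, with EpiSC libraries left of TSC libraries and STM2457 left of DMSO. Within each panel the STM2457 libraries lie below DMSO in EpiSCs and above DMSO in TSCs, as for Trp73 at 6.5 and 7.56 under 13.1 and 13.4 CPM and at 2.52 and 1.86 over 1.06 and 1.37 CPM.

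The m6A writer genes moved mostly upward in both lines. Of 8 members, 4 rose and 1 fell in EpiSCs (14.3% and 13.3% of all), and 6 rose and 0 fell in TSCs (13.6% and 11.4% of all). The effect was lower in EpiSCs at 2 (2.15% of all tested genes), both of the Rbm15 family that guides the complex to RNA. Rbm15 had 25.8 and 27.6 CPM in EpiSCs with STM2457, 23.9 and 22 CPM in EpiSCs with DMSO, 112 and 116 CPM in TSCs with STM2457, and 62.6 and 56.1 CPM in TSCs with DMSO. The TSC groups stood well apart, with a rise of 0.94 log2, and the EpiSC value of 0.22 was not called (adjusted p = 0.0675), giving a difference of -0.72 ± 0.115 (adjusted p = 0.000205). Rbm15b, its paralog, rose in TSCs by 0.57 log2 and differed by -0.40 ± 0.0993 (adjusted p = 0.017). The call of Rbm15b was lost without EpiSC STM2457 replicate 2 (adjusted p = 0.0857), EpiSC DMSO replicate 1 (0.0554), TSC STM2457 replicate 1 (0.103) or TSC STM2457 replicate 2 (0.0631), and with ribosomal scaling (0.0812). Wtap, the adaptor that localises the complex, had 140 and 148 CPM in EpiSCs with STM2457 against 80.1 and 89.2 CPM with DMSO, and 109 and 108 CPM in TSCs with STM2457 against 61.4 and 63.4 CPM with DMSO. It rose by nearly the same amount in both lines, 0.77 log2 in EpiSCs and 0.80 in TSCs, and the difference of -0.03 ± 0.0951 was not called (adjusted p = 0.946). Mettl3 was the member that fell in EpiSCs with TMM, by 0.25 log2 (adjusted p = 0.0362). By DESeq2 and with ribosomal scaling 0 members fell there, and 18.4% of the exon bases of Mettl3 overlap a gene on the other strand.

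Among 11 readers and erasers, 4 rose and 1 fell in EpiSCs (14.3% and 13.3% of all), and 4 rose and 0 fell in TSCs (13.6% and 11.4% of all). Between the lines 1 differed (9.09%, against 4.23% of all tested genes). Ythdc1, the nuclear YTH reader, had 157 and 164 CPM in EpiSCs with STM2457, 113 and 120 CPM in EpiSCs with DMSO, 228 and 219 CPM in TSCs with STM2457, and 117 and 120 CPM in TSCs with DMSO. The DMSO libraries of the lines overlapped, and treated TSC libraries lay above treated EpiSC libraries. Ythdc1 rose in both, by 0.46 log2 in EpiSCs and 0.92 in TSCs (difference -0.46 ± 0.0863, adjusted p = 0.00169). Ythdf1 and Ythdf2, cytoplasmic readers, rose in both lines, with differences of -0.02 and -0.12 that did not pass the test, and the erasers Fto (0.05) and Alkbh5 (0.00) did not either. A second reader was called when EpiSC DMSO replicate 1, TSC DMSO replicate 1 or TSC DMSO replicate 2 was left out.

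Lineage lists differed at 13.6% (primed pluripotency), 23.8% (trophoblast stem cell) and 11.8% (primitive streak) of their members, against 4.23% of all tested genes. Naive pluripotency genes (7.69%) and Hox, Cdx and posterior genes (7.14%) gave 1 call each, and 0 by DESeq2 or with ribosomal scaling. Of 22 primed pluripotency genes, 2 rose and 6 fell in EpiSCs with TMM (14.3% and 13.3% of all tested genes). With ribosomal scaling the EpiSC median of -0.0738 became 0.0722 and 2 fell. Between the lines 3 differed (2 with that scaling). Pou3f1, a POU factor of the primed epiblast, had 187 and 183 CPM in EpiSCs with STM2457, 127 and 137 CPM in EpiSCs with DMSO, 226 and 237 CPM in TSCs with STM2457, and 271 and 259 CPM in TSCs with DMSO. It rose in EpiSCs by 0.49 log2 and fell in TSCs by 0.19 (difference 0.68 ± 0.0864, adjusted p = 8.23e-06). Dnmt3a, a de novo DNA methyltransferase, had 102 and 105 CPM in EpiSCs with STM2457, 138 and 129 CPM in EpiSCs with DMSO, 62.2 and 56.8 CPM in TSCs with STM2457, and 55 and 53.8 CPM in TSCs with DMSO. It fell in EpiSCs by 0.36 log2, with a TSC value of 0.13 and a difference of -0.49 ± 0.0974 (adjusted p = 0.00277). Lin28a, an RNA-binding protein that blocks let-7 maturation, fell in EpiSCs by 0.34 log2 and differed by -0.34 log2.

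Of 21 trophoblast stem cell genes, 5 had a higher effect in EpiSCs: Gata3, Bmp4, Tead4, Ets2 and Krt8. In EpiSCs 4 members rose and 0 fell (14.3% and 13.3% of all), and in TSCs 1 rose and 5 fell with TMM (13.6% and 11.4% of all). With ribosomal scaling 5 rose and 1 fell in TSCs, and the median of -0.027 became 0.103. Bmp4, a signal of extraembryonic ectoderm, had 9.07 and 10.9 CPM in EpiSCs with STM2457, 6.04 and 5.83 CPM in EpiSCs with DMSO, 274 and 280 CPM in TSCs with STM2457, and 266 and 254 CPM in TSCs with DMSO. The EpiSC level stayed far below that of TSCs, and the difference in effect was 0.67 ± 0.137 (adjusted p = 0.00383). Without EpiSC STM2457 replicate 2 the adjusted p of Bmp4 was 0.0686. Gata3, a trophoblast factor, had 2.52 and 3.8 CPM in EpiSCs with STM2457 against 1.89 and 1.7 CPM with DMSO, and 118 and 118 CPM in TSCs with STM2457 against 128 and 113 CPM with DMSO. Its difference of 0.86 ± 0.237 (adjusted p = 0.0349) was lost in 7 of the 16 alternative settings, to an adjusted p of up to 0.362 without EpiSC STM2457 replicate 2. Cdx2 and Elf5 averaged 0.0988 CPM or less in EpiSCs. The list count of 5 was 3 without EpiSC STM2457 replicate 1 or EpiSC DMSO replicate 2, 2 without EpiSC STM2457 replicate 2 or TSC STM2457 replicate 1, 1 without TSC STM2457 replicate 2, and 3 with ribosomal scaling.

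Primitive streak genes, which mark the first mesendoderm, had a lower effect in EpiSCs at 2 of 17 members, T and Wnt3, and a higher one at 0 (2.15% and 2.08% of all tested genes). In EpiSCs 0 rose and 4 fell (14.3% and 13.3% of all), and in TSCs 4 rose and 0 fell (13.6% and 11.4% of all), where DESeq2 called 1 rise. The median difference was -0.81 on the log2 scale over the list, and -0.458 over the 8 members at 1 CPM or more in both lines, of which 0 were above 0. T, the Brachyury factor, had 22.9 and 32.2 CPM in EpiSCs with STM2457, 47.8 and 43.8 CPM in EpiSCs with DMSO, 6.09 and 4.45 CPM in TSCs with STM2457, and 3.98 and 4.06 CPM in TSCs with DMSO. It fell in EpiSCs by 0.73 log2 (difference -1.11 ± 0.248, adjusted p = 0.0111). Wnt3, the WNT ligand that sets up the streak, had 38.8 and 40.7 CPM in EpiSCs with STM2457 against 65.1 and 71.8 CPM with DMSO, and 0.895 and 1.03 CPM in TSCs with STM2457 against 0.743 and 0.493 CPM with DMSO. It fell in EpiSCs by 0.78 log2 (difference -1.42 ± 0.372, adjusted p = 0.0261). The list count was 1 without EpiSC STM2457 replicate 1, TSC STM2457 replicate 2 or TSC DMSO replicate 1, and 0 without TSC STM2457 replicate 1 or TSC DMSO replicate 2. Where the call was lost, the adjusted p of T was 0.0832 to 0.111 and that of Wnt3 0.0518 to 0.188.

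Of 25 WNT ligands and feedback genes, 1 rose and 5 fell in EpiSCs (14.3% and 13.3% of all tested genes). In TSCs 8 rose and 0 fell (13.6% and 11.4% of all), where DESeq2 called 3 rises. Wnt3, Wnt7b and Lgr4 differed (12.0%, against 4.23% of all tested genes). With ribosomal scaling the EpiSC median of -0.0887 became 0.0406, and 5 rose and 3 fell there. Wnt7b, a ligand made at a high level by trophoblast, had 13.1 and 12.6 CPM in EpiSCs with STM2457, 7.55 and 5.62 CPM in EpiSCs with DMSO, 427 and 424 CPM in TSCs with STM2457, and 407 and 373 CPM in TSCs with DMSO. It rose in EpiSCs by 0.96 log2 (difference 0.84 ± 0.138, adjusted p = 0.000337). Lgr4, a receptor for R-spondins, rose in TSCs by 0.54 log2 and had an EpiSC value of -0.15 (difference -0.69 ± 0.11, adjusted p = 0.000198). Of 22 FGF genes, 2 had a lower effect in EpiSCs (2.15% of all tested genes), and 1 did with ribosomal scaling. Fgfbp1, which releases FGF from the matrix, had 109 and 113 CPM in EpiSCs with STM2457, 77.6 and 79.7 CPM in EpiSCs with DMSO, 19.1 and 16.7 CPM in TSCs with STM2457, and 6.21 and 6.41 CPM in TSCs with DMSO. It rose in both lines, by 0.50 log2 in EpiSCs and 1.5 in TSCs (difference -1.0 ± 0.135, adjusted p = 2.19e-05).

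Of 23 Nodal and TGF-beta genes, Pcsk6 and Tgfb1 had a higher effect in EpiSCs and 0 a lower one (2.08% and 2.15% of all tested genes). With ribosomal scaling the count was 1, and it varied when single libraries were left out. Pcsk6, a convertase that cuts Nodal precursors, had 7.49 and 6.91 CPM in EpiSCs with STM2457, 4.53 and 3.4 CPM in EpiSCs with DMSO, 116 and 119 CPM in TSCs with STM2457, and 135 and 130 CPM in TSCs with DMSO (difference 1.04 ± 0.162, adjusted p = 0.00017). Pcsk6 rose in EpiSCs by 0.86 log2, and the TSC value of -0.18 was not called. Of 17 BMP feedback genes, Id1 and Bmp4 had a higher effect in EpiSCs and Bambi a lower one (2.08% and 2.15% of all tested genes). Id1, a BMP target that blocks basic helix-loop-helix factors, rose in EpiSCs by 0.76 log2 and had a TSC value of -0.06 (difference 0.82 ± 0.157, adjusted p = 0.00191).

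Targets of p53 differed at 4 of 28 members, each with a higher effect in EpiSCs (2.08% of all tested genes), and at 1 with ribosomal scaling. In EpiSCs 5 rose and 12 fell (14.3% and 13.3% of all), and in TSCs 2 rose and 14 fell (13.6% and 11.4% of all). With ribosomal scaling 6 rose and 4 fell in EpiSCs, and 3 rose and 7 fell in TSCs. The median effect in EpiSCs was -0.114 with TMM and 0.0327 with ribosomal scaling, and in TSCs -0.227 and -0.0943, so the EpiSC sign depends on the scaling. Bbc3, the pro-apoptotic PUMA gene, had 41.8 and 38.5 CPM in EpiSCs with STM2457, 39.1 and 36.6 CPM in EpiSCs with DMSO, 38.6 and 37.8 CPM in TSCs with STM2457, and 53.5 and 56.5 CPM in TSCs with DMSO. It fell in TSCs by 0.53 log2, and the EpiSC value of 0.08 was not called (difference 0.61 ± 0.112, adjusted p = 0.00123). The list count was 1 without EpiSC STM2457 replicate 2 or TSC STM2457 replicate 1, and 2 without EpiSC DMSO replicate 1 or TSC STM2457 replicate 2.

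DNA replication genes differed at 3 of 33 members, Pcna, Cdc6 and Mcm7, all higher in effect in EpiSCs (2.08% of all tested genes). With ribosomal scaling 1 differed, and Cdc6 and Mcm7 lost their calls. In EpiSCs 3 members rose and 6 fell (14.3% and 13.3% of all), and in TSCs 3 rose and 14 fell (13.6% and 11.4% of all). With ribosomal scaling 1 fell in EpiSCs and 3 in TSCs. The list medians of -0.0502 in EpiSCs and -0.128 in TSCs became 0.0939 in EpiSCs and 0.00314 in TSCs with ribosomal scaling. Pcna, the sliding clamp of the replication fork, had 238 and 230 CPM in EpiSCs with STM2457, 235 and 221 CPM in EpiSCs with DMSO, 161 and 172 CPM in TSCs with STM2457, and 214 and 218 CPM in TSCs with DMSO (difference 0.41 ± 0.0855, adjusted p = 0.0041). Without TSC STM2457 replicate 1 its adjusted p was 0.0624 and the list count was 0. The count was 1 without EpiSC STM2457 replicate 2, EpiSC DMSO replicate 2 or TSC STM2457 replicate 2.

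Respiratory chain, ribosomal protein and mitosis genes, many of which fell in both lines with TMM, differed at 3.85%, 0% and 6.67% of members, against 4.23% of all tested genes. Of 52 nuclear-encoded respiratory chain genes, 35 fell in EpiSCs and 31 in TSCs (13.3% and 11.4% of all fell) while 0 rose in either line. Median effects were -0.279 in EpiSCs and -0.224 in TSCs, and -0.136 in EpiSCs and -0.092 in TSCs with ribosomal scaling. That scaling left 20 falls and 1 rise in EpiSCs and 4 falls in TSCs. The difference was called at 2 members, Sdhb and Cyc1, each with a deeper fall in EpiSCs, and at 0 with ribosomal scaling. Sdhb, a subunit of succinate dehydrogenase, had 74.6 and 72 CPM in EpiSCs with STM2457, 122 and 123 CPM in EpiSCs with DMSO, 66.2 and 66.2 CPM in TSCs with STM2457, and 83.4 and 86 CPM in TSCs with DMSO (difference -0.39 ± 0.0916, adjusted p = 0.0117). The count was 0 without TSC STM2457 replicate 1 or 2, 1 without EpiSC STM2457 replicate 1 or 2, and 4 without EpiSC DMSO replicate 1 or TSC DMSO replicate 2. Of 81 ribosomal protein genes, 36 fell in EpiSCs and 13 in TSCs with TMM (13.3% and 11.4% of all fell), and 0 differed by edgeR. By DESeq2 39 fell in EpiSCs and 28 in TSCs, and 3 differed (1 higher and 2 lower in EpiSCs). Without EpiSC DMSO replicate 1 the count was 5, without TSC DMSO replicate 1 it was 3, without TSC DMSO replicate 2 it was 2 and without EpiSC DMSO replicate 2 it was 1. Mitosis genes fell at 15 of 30 members in EpiSCs and 14 in TSCs with TMM (13.3% and 11.4% of all fell). With ribosomal scaling 5 fell in EpiSCs and 3 in TSCs. Their medians of -0.155 in EpiSCs and -0.153 in TSCs became -0.0101 in EpiSCs and -0.0216 in TSCs with that scaling. The mitosis genes gave 2 differences, Aurkb and Plk1, that were lost in 9 and 10 of the 16 alternative settings. Of the 13 mitochondrially encoded genes, mt-Co1 differed by 0.54 ± 0.0999 log2 (adjusted p = 0.00141), with 3461 and 3188 CPM in EpiSCs with STM2457, 2755 and 2806 CPM in EpiSCs with DMSO, 5271 and 5028 CPM in TSCs with STM2457, and 5976 and 6524 CPM in TSCs with DMSO. Leaving out EpiSC STM2457 replicate 2, EpiSC DMSO replicate 2 or TSC DMSO replicate 2 gave 3 calls in that list, and leaving out EpiSC DMSO replicate 1 gave 2.

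**Figure D5:**
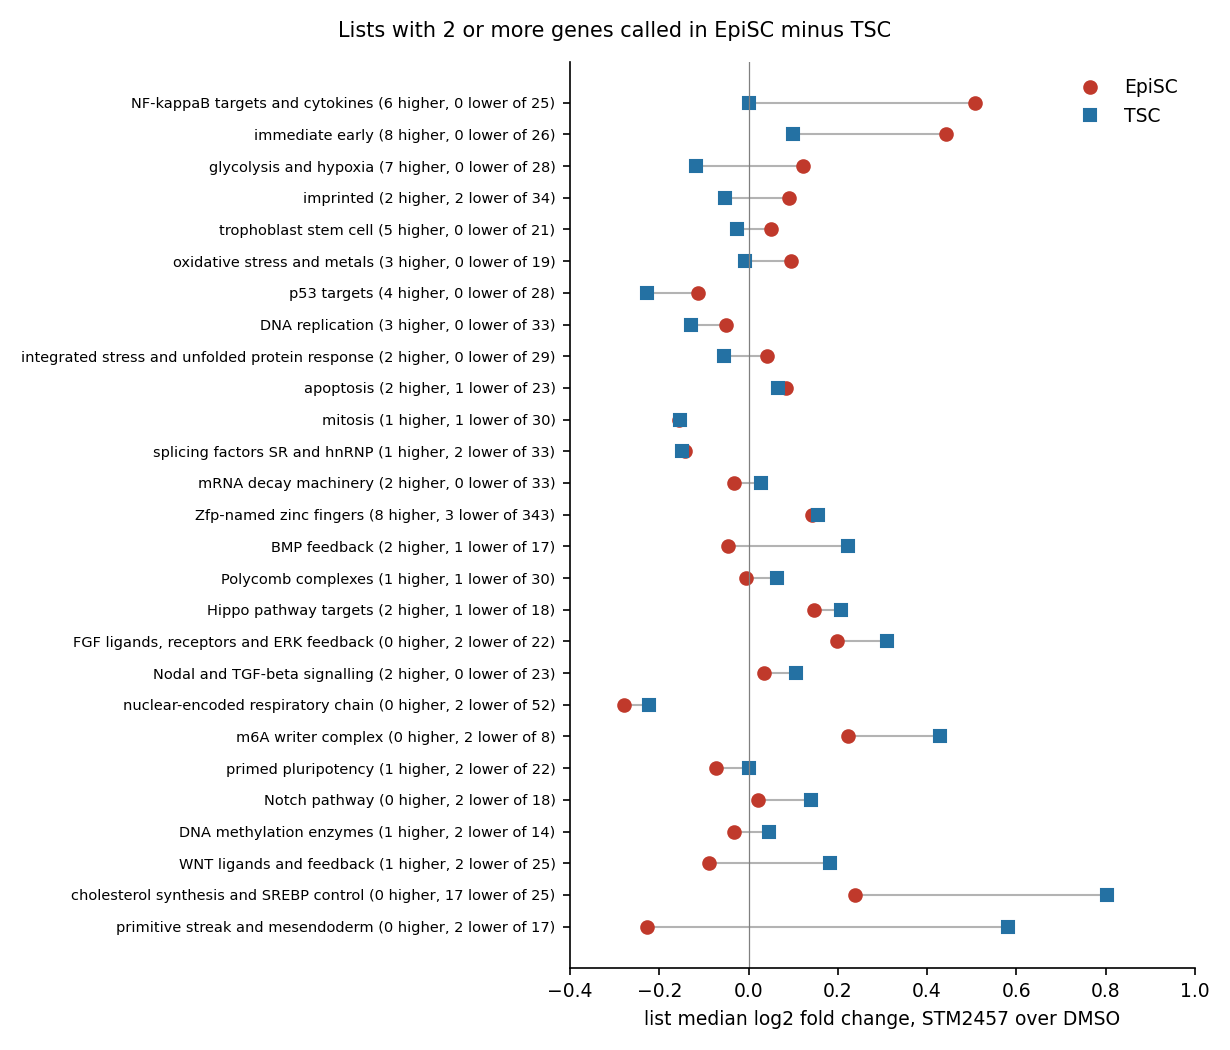
Median log2 fold change with STM2457 over DMSO in EpiSCs (circles) and in TSCs (squares) for the 27 gene lists with at least 2 members called in the difference between the lines. The cholesterol list has its EpiSC median of 0.239 left of its TSC median of 0.803, and the NF-kappaB list has its EpiSC median of 0.508 right of its TSC median of 0.

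The series asks about X-linked dosage, and the X chromosome was compared in the same way. Of 508 tested X-linked protein-coding genes 18 differed (3.54%, 13 higher and 5 lower in effect in EpiSCs). Of the 13327 protein-coding genes not on the X, mitochondrially encoded ones included, 629 differed (4.72%). The mean log2 CPM of X-linked genes minus that of autosomal genes was 0.259 and 0.26 in EpiSCs with STM2457, 0.273 and 0.308 in EpiSCs with DMSO, -1.23 and -1.23 in TSCs with STM2457, and -1.20 and -1.16 in TSCs with DMSO. Each STM2457 library lay below each DMSO library of its line. The effect was -0.0312 in EpiSCs and -0.0508 in TSCs, and the difference of 0.0195 had a two-sided exact permutation p of 0.667, where 0.0556 is the smallest that the 36 assignments can give. Xist, the RNA that coats the inactive X chromosome, had 1041 and 1090 CPM in EpiSCs with STM2457, 1084 and 1010 CPM in EpiSCs with DMSO, 740 and 773 CPM in TSCs with STM2457, and 922 and 789 CPM in TSCs with DMSO. Its difference of 0.20 ± 0.0986 was not called (adjusted p = 0.268), nor was that of its antisense partner Tsix (-0.31 ± 0.745, adjusted p = 0.899), which was at 0.413 to 1.01 CPM over all libraries. Xist and Tsix overlap on opposite strands, so their reads cannot be told apart without the strand setting.

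Long internal and last exons are where m6A is known to concentrate, and protein-coding genes were split into quartiles by their longest exon. The mean log2 CPM of the longest quartile minus that of the shortest was 0.546 and 0.584 in EpiSCs with STM2457, 0.468 and 0.461 in EpiSCs with DMSO, 0.00799 and 0.0338 in TSCs with STM2457, and -0.0933 and -0.164 in TSCs with DMSO. STM2457 libraries lay above DMSO libraries in both lines, by 0.101 in EpiSCs and 0.15 in TSCs on average. The difference of -0.0487 had an exact permutation p of 0.667, again with 0.0556 as the smallest possible. The direction of the gene calls varied with the quartile. Among the 3463 genes whose longest exon had 66 to 972 bases, 82 had a higher and 51 a lower effect in EpiSCs. Among the 3458 with 3038 to 122802 bases, 57 had a higher and 117 a lower effect in EpiSCs. Over all tested genes the shares were 2.08% higher and 2.15% lower, and the counts by quartile were not tested. The median difference was 0.0186 in the shortest quartile and -0.0284 in the longest.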

How the data were processed

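RNA from 8 libraries, 2 in each of 4 groups, was compared. The deposited table holds whole-number read counts per gene and library, not normalized. Per the submitters' processing notes, the tools were FastQC, Trim Galore, STAR and featureCounts, and the build was GRCm39. Their versions and the strand setting of the counting are not given in the sources used here. Gene names, chromosomes, overlaps and exon lengths came from GENCODE M21, built on GRCm38, by Ensembl ID, so 52083 of 55416 IDs were annotated and 3333 joined no list. No coordinates were carried from one build to the other.

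Counts were fitted in edgeR 4.0.16 (R 4.3.3) with TMM scaling, filterByExpr (minimum count 10, minimum total 15), 4 group means and a robust quasi-likelihood F test, two-sided. A call is a Benjamini-Hochberg adjusted p below 0.05 over all 16140 tested genes. Values with ± are log2 differences with their SE, the size of the difference over the square root of F. The X and exon measures used log2 CPM with a prior count of 2 and an exact two-sided permutation of treatment within each line. Promoters came from RefSeq (GRCm38.p6). The fit was tested on simulated counts.

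The comparison, its members and the 43 gene lists were chosen with earlier results of these data known. Named genes are Mettl3, Xist and Tsix, and, among called genes, the 12 largest differences each way at 5 CPM or more in a group and 1 CPM or more in both lines, with treated and control libraries apart in at least 1 line. To these come the 3 largest each way in 1 line only, 6 with opposite effects and up to 2 per list. Some genes that meet the rule are not reported here. Of the 109 called genes with a full set of values, 86 followed this rule. The other 23 were named after their values were seen, as were Cxcl10, Ltb, Egr1, Wtap and Cbll1, and single list members given with 1 value. The 23 are Gata3, Nfe2l2, Nsdhl, Jun, Mcm7, Gadd45a, Aldoa, Dhcr7, Lss, Ier2, Jund, Fasn, Utp14b, Plk2, Pfkp, Hmgcs1, Nfkbia, Ier3, Nfkbie, Vegfa, Krt19, Scd2 and Nfkb2.

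Same-numbered libraries did not deviate together (correlation of deviations from the group means -0.00537 in EpiSCs and -0.0122 in TSCs), so replicate numbers were not used as pairs. Replicates differed beyond counting noise, with a chi-square per degree of freedom of 2.18 to 4.98, and none was merged. The results were also computed with DESeq2 1.42.0, another scaling or filter, a replicate block, all 14 libraries, a fold minimum of 1.5 and leaving out each library.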

Additional observations from a re-analysis of the deposited data

Results flagged for a closer look

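The STM2457 effect differed between EpiSCs and TSCs by the test of the difference itself at 683 genes, and the named ones among them are given with their log2 differences, EpiSC effect minus TSC effect. None of these differences comes with a tested explanation. Sterol and fatty acid genes with a lower effect in EpiSCs were, by log2 difference, Slc27a2 -1.54, Msmo1 -1.32, Insig1 -1.16, Lss -1.0, Dhcr7 -0.98, Scd2 -0.88, Nsdhl -0.82, Fasn -0.81 and Hmgcs1 -0.57. Immediate early and NF-kappaB genes with a higher effect in EpiSCs were, by log2 difference, Csf1 1.37, Tnfaip2 1.35, Nfkbiz 1.02, Nfkbie 1.01, Maff 0.94, Ier3 0.93, Junb 0.83, Jun 0.73 and Zfp36 0.64. Nfkbia 0.61, Ier2 0.56, Jund 0.38 and Nfkb2 0.35 had differences of the same sign. Glycolysis, hypoxia, oxidative stress and mitochondrial genes with a higher effect in EpiSCs were, by log2 difference, Hmox1 0.73, Slc2a1 0.73, Srxn1 0.56, mt-Co1 0.54, Vegfa 0.51, Slc2a3 0.43, Pfkp 0.35, Aldoa 0.35 and Nfe2l2 0.35. Shmt2 0.32 and Slc3a2 0.30 had differences of the same sign. Glycolysis, hypoxia, oxidative stress and mitochondrial genes with a lower effect in EpiSCs were, by log2 difference, Sdhb -0.39 and Cyc1 -0.36. Lineage and signalling genes with a higher effect in EpiSCs were, by log2 difference, Pcsk6 1.04, Bhlhe40 0.91, Gata3 0.86, Wnt7b 0.84, Id1 0.82, Flt1 0.81, Pou3f1 0.68, Bmp4 0.67 and Tead4 0.63. Nes 0.59, Tgfb1 0.56, Cyp26a1 0.55, Amotl1 0.48, Klf5 0.44 and Krt8 0.37 had differences of the same sign. Lineage and signalling genes with a lower effect in EpiSCs were, by log2 difference, Sox7 -3.17, Wnt3 -1.42, T -1.11, Fgfbp1 -1.0, Lgr4 -0.69, Dnmt3a -0.49, Fgfr1 -0.45, Jag2 -0.45 and Notch2 -0.41. Cell cycle, p53, apoptosis, chromatin, RNA and other listed genes with a higher effect in EpiSCs were, by log2 difference, Peg10 0.81, Zfp318 0.61, Bbc3 0.61, Bid 0.57, Eda2r 0.44, Gadd45a 0.44, Pcna 0.41, Cdc6 0.38 and Plk2 0.38. Zfp36l1 0.37, Rybp 0.33, Aurkb 0.32 and Mcm7 0.30 had differences of the same sign. Cell cycle, p53, apoptosis, chromatin, RNA and other listed genes with a lower effect in EpiSCs were, by log2 difference, Zfp618 -1.50, Tet3 -0.77, Rbm15 -0.72, Phf19 -0.68, Hnrnph1 -0.59, Trappc9 -0.51, Stat2 -0.48, Ythdc1 -0.46 and Rbm15b -0.40. Hnrnpa0 -0.34 and Plk1 -0.30 had differences of the same sign. Genes in no list with a higher effect in EpiSCs were, by log2 difference, Mmp9 1.75, Nxpe4 1.70, Nos3 1.54, Ccdc184 1.47, Phlda1 1.23, Rgs16 1.22, Adamts14 1.20, Tmem150c 1.16 and Spp1 1.13. Sema7a 1.07 and Krt19 0.89 had differences of the same sign. Genes in no list with a lower effect in EpiSCs were, by log2 difference, Etv1 -5.86, Clec2g -5.69, Dglucy -3.32, Chst15 -2.73, Bahcc1 -1.75, Trp73 -1.74, Fzd10 -1.44, Pou4f1 -1.38 and Paxx -1.32. Plekhd1 -1.31, Arntl2 -1.30, Map2k6 -1.29, Utp14b -1.29, Rbm12 -1.26 and Acer2 -1.18 had differences of the same sign. The fitted values of Etv1 and Clec2g depend on the prior count, since each had 0 counts in TSCs with DMSO, and are no bound. Sox7 was under 1.2 CPM in each library, so its difference rests on few reads.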

How the results depend on the processing

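All 683 differences kept their sign under every alternative that fitted them. These genes were called on counts that each alternative uses again, so the kept signs, also of the named genes below, are no separate support. The count of 683 was 445 by DESeq2 (63 of the 683 had no adjusted p), 336 with ribosomal scaling, 1 with all 14 libraries and 14 with a fold minimum of 1.5, and 289 to 751 with 1 library left out. The EpiSC count of 4455 was 309 with all 14 libraries and 59 with the fold minimum, and 2987 to 4730 with 1 library left out. The TSC count of 4036 was 178 and 61 under the same settings and 2097 to 4269 with 1 library left out, the lowest 3 being 2427 without TSC STM2457 replicate 1, 2097 without TSC STM2457 replicate 2 and 2559 without TSC DMSO replicate 2. The 76 opposite genes were 40 by DESeq2, 28 with ribosomal scaling, 0 with all 14 libraries and 0 with the fold minimum, and 27 to 75 with 1 library left out. The cause of these changes was not tested, except that a fold minimum asks for more by construction. The X measure of 0.0195 was -0.01029 with medians in place of means, and 0.002416 to 0.03665 with 1 library left out. The exon measure of -0.0487 was -0.08406 to -0.01333 with 1 library left out. With the replicate number as a block within each line, 649 genes differed, and with 1 block shared by both lines 762 did, although the numbers share only a name. Leaving aside the 14 libraries and the fold minimum, 16 settings remained. Of the 109 named genes, 54 held in each of these that gave them an adjusted p, and 0 reversed. DESeq2 kept 87 calls, lost 9 and gave no adjusted p for the other named genes, so some of the 54 were not judged by it. The settings with the most losses were those with a TSC STM2457 library left out. The libraries limit low genes: 3 counts over a group of TSC DMSO libraries are 0.0809 CPM.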

Other observations

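Other gene lists differed at 21.4% (DNA methylation enzymes), 16.7% (Hippo pathway targets), 13.0% (apoptosis), 11.8% (imprinted) and 9.09% (splicing factors) of members, against 4.23% of all tested genes. Further lists were lower, at 6.67% (Polycomb complexes), 6.06% (mRNA decay machinery) and 5.56% (circadian clock). Heat shock, RNase P and MRP, nuclear RNA export, cell cycle inhibitor, X-inactivation centre and embryonic fibroblast lists had 0 calls. With ribosomal scaling 1 Hippo target differed, with a higher effect in EpiSCs. Of 14 DNA methylation enzymes, 3 differed, and Tet3, which oxidises 5-methylcytosine, had 23.6 and 30.1 CPM in EpiSCs with STM2457, 30 and 25.5 CPM in EpiSCs with DMSO, 57.6 and 53.3 CPM in TSCs with STM2457, and 34.8 and 32.1 CPM in TSCs with DMSO. It rose in TSCs by 0.73 log2, with a difference of -0.77 ± 0.141 (edgeR adjusted p = 0.00123). By DESeq2 and with ribosomal scaling 2 members of the list had a lower effect in EpiSCs and 0 a higher one. With single libraries left out the count mostly fell. Of 34 imprinted genes, 2 had a higher and 2 a lower effect in EpiSCs. Peg10, a paternally expressed gene of the placenta, had 176 and 184 CPM in EpiSCs with STM2457 against 144 and 120 CPM with DMSO, and 206 and 188 CPM in TSCs with STM2457 against 254 and 252 CPM with DMSO. It rose in EpiSCs by 0.45 log2 and fell by 0.36 in TSCs (difference 0.81 ± 0.0982, edgeR adjusted p = 4.62e-06). The imprinted count of 4 was 1 without EpiSC STM2457 replicate 2 or TSC STM2457 replicate 1 and 2 without TSC STM2457 replicate 2 or with ribosomal scaling.

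Hnrnph1, a splicing regulator, had 339 and 354 CPM in EpiSCs with STM2457, 553 and 582 CPM in EpiSCs with DMSO, 452 and 463 CPM in TSCs with STM2457, and 488 and 508 CPM in TSCs with DMSO. It fell in EpiSCs by 0.71 log2, and the TSC value of -0.12 was not called (difference -0.59 ± 0.0857, edgeR adjusted p = 6.32e-05). The list of 33 splicing factors had 3 calls, and 1 without EpiSC STM2457 replicate 1 or either TSC STM2457 library, or with ribosomal scaling. Zfp318, a zinc finger gene, rose in EpiSCs by 0.58 log2 and had a TSC value of -0.04 (difference 0.61 ± 0.105, edgeR adjusted p = 0.000522). It was among 11 differences over 343 Zfp-named genes (3.21%, below the 4.23% of all tested genes). Of the 343, 82 rose and 13 fell in EpiSCs (14.3% and 13.3% of all), and 82 rose and 11 fell in TSCs (13.6% and 11.4% of all). The count of differences was 6 by DESeq2 and 6 with ribosomal scaling, where 126 rose and 3 fell in EpiSCs. With libraries left out it was 5 without EpiSC STM2457 replicate 1 or TSC STM2457 replicate 1, 4 without TSC STM2457 replicate 2 and 7 without TSC DMSO replicate 2. Phf19, a Polycomb accessory gene, fell in EpiSCs by 0.70 log2 and had a TSC value of -0.02 (difference -0.68 ± 0.143, edgeR adjusted p = 0.00483). Flt1, a VEGF receptor, rose in EpiSCs by 0.82 log2 and had a TSC value of 0.01 (difference 0.81 ± 0.105, edgeR adjusted p = 1.18e-05).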
